A study of Homo sapiens with 4 samples.

Results

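IL11, LIF, the gp130 receptor chains and their downstream kinase, transcription factor and SOCS inhibitors were followed in the human hepatoma line Huh7. The group comprised 10 of the 42169 gene rows of the deposited count table: IL11, LIF, IL6R, LIFR, OSMR, IL6ST, JAK1, STAT3, SOCS2 and SOCS3. They were taken by gene symbol. The members were chosen by their place in the pathway and by the measured difference between the clones, in which IL11 and SOCS3 had passed the threshold, so for all 10 that difference is a description with no test. The tested samples were 2 libraries of a clone lacking Brf1 and TTP (clone 18, labelled Brf1/TTP DKO). The others were 2 libraries of a control clone (clone 1, labelled WT). Every culture, controls included, was kept in DMSO for 3 h and then exposed for 10 min to actinomycin D at 5 µg/ml, an inhibitor of transcription, before total RNA was taken. Each genotype was 1 clone, so genotype and clone cannot be told apart. The sources used here do not say how the genes were disrupted.

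The cytokines of this family bind a receptor chain of their own (IL11RA for IL-11, IL6R for IL-6, LIFR for LIF, OSMR for oncostatin M) and share the signalling chain gp130, encoded by IL6ST. Ligand binding activates JAK1, which phosphorylates STAT3, and STAT3 in turn induces SOCS3, an inhibitor that binds gp130 and JAK1 and ends the signal. In the liver the pathway is known for the acute-phase response, in which hepatocytes change the plasma proteins they secrete. TTP (encoded by ZFP36) and BRF1 (here butyrate response factor 1, encoded by ZFP36L1) recognise AU-rich stretches of an mRNA's 3′ UTR and bring in deadenylases, which remove its poly(A) tail.

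Gene counts were 10271428 and 16430228 in the DKO libraries and 9685798 and 12507263 in the control libraries, so a count of 3 equalled 0.183 to 0.310 CPM (the usual scaling of a count to the gene total of its library). ZFP36 mRNA stood at 37.48 and 36.21 CPM in DKO and at 30.04 and 23.35 CPM in control, and ZFP36L1 at 146.9 and 118.1 CPM in DKO and at 135.2 and 108.9 CPM in control. These levels do not check the genotype, since a mutation that stops a protein need not lower its mRNA. All 10 hepatocyte markers examined were detected, with a summed level of 25914.8 to 29239.8 CPM over the 4 libraries. Of these, AFP was lower in DKO (3708 and 3385 CPM in DKO, 7565 and 8081 CPM in control, edgeR adjusted p = 0.0159). TTR was higher (142.7 and 155.7 CPM in DKO, 96.95 and 78.27 CPM in control, edgeR adjusted p = 0.0297), and the others did not pass. Of 6 leukocyte and 5 endothelial markers, 2 and 3 had no count in any library, among them CD3E, VWF, CDH5 and KDR. All 6 stellate cell and fibroblast markers were detected, with a summed level of 142.2 and 139.7 CPM in DKO and 95.5 and 142.7 CPM in control, which overlapped. Among them PDGFRB (13.9 and 12.6 CPM in DKO, 7.85 and 9.115 CPM in control) and LUM (17.4 and 10.8 CPM in DKO, 9.60 and 7.20 CPM in control) were higher in both DKO libraries than in either control library, and neither passed the test (edgeR adjusted p = 0.147 and 0.135). COL3A1 was lower in both DKO libraries (3.21 and 4.32 CPM in DKO, 4.75 and 7.835 CPM in control, edgeR adjusted p = 0.227). COL1A1, COL1A2 and DCN overlapped between the clones. Mitochondrial transcripts took 3.59% and 1.16% of gene counts in DKO and 2.53% and 0.448% in control, lower in replicate 2 of each clone. The summed endothelial level was 26.9 and 28.6 CPM in DKO and 7.64 and 6.24 CPM in control, nearly all of it PECAM1, and the leukocyte level was 109.3 and 124.8 CPM in DKO and 77.5 and 75.6 CPM in control, mostly LYZ. PECAM1 passed the test (edgeR adjusted p = 0.000163) and LYZ did not (edgeR adjusted p = 0.0743). The part of these values in the results was not tested. Directions are relative to the median gene, and scaling to the ERCC spike-ins moved that median by -0.68 on the log2 scale.

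The 3′ UTRs of the 10 mRNAs differed in the heptamer UAUUUAU, the core of the element that TTP and BRF1 bind. In the longest annotated 3′ UTR (GENCODE release 29, hg38), the sense strand held 7 heptamers in IL11, 5 in LIF, 3 in OSMR and 2 in SOCS3, with overlapping copies counted singly. LIFR, IL6ST and SOCS2 held 1 each, and IL6R, JAK1 and STAT3 held none. Among 11888 tested genes with a 3′ UTR, 36.1% had at least 1 heptamer, 1.58% at least 5 and 0.362% at least 7. Of the 1936 3′ UTRs of 0.8 to 1.25 times the length of that of IL11 (1618 bases), 2 had at least 7, which is 0.103% and includes IL11 itself. For LIF (3204 bases) 20 of 1716 such 3′ UTRs had at least 5, for OSMR (2197 bases) 5.90% had at least 3, and for SOCS3 (1640 bases) 11.2% had at least 2. A single heptamer was common at the lengths of LIFR and IL6ST (6632 and 7641 bases), where 76.7% and 79.9% had at least 1. A match describes letters in the annotated sequence, and which 3′ UTR the Huh7 mRNAs carried was not measured.

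All 4 stretches of the IL11 3′ UTR that hold the heptamer are shown, with examples from LIF, SOCS3 and OSMR, and the lone heptamer of IL6ST for contrast. Each is 30 bases from the GENCODE transcript, 5′ to 3′, with the heptamers in capitals. IL11, LIF, SOCS3 and IL6ST are transcribed from the minus strand and OSMR from the plus strand.
IL11 chr19:55365942-55365971: cagaucuUAUUUAUUUAUUUAUuucaguac
IL11 chr19:55365828-55365857: gugccuUAUUUAUacuUAUUUAUuucagga
IL11 chr19:55365670-55365699: ggaacauauauUAUUUAUuuaagcaauuac
IL11 chr19:55365181-55365210: gcccagcuaauUAUUUAUuucuuuuguauu
LIF chr22:30242563-30242592: uucUAUUUAUuaugauauccUAUUUAUauu
SOCS3 chr17:78356828-78356857: uuugcacaUAUUUAUAUUUAUauucagaaa
OSMR chr5:38935445-38935474: gucagcauuUAUUUAUUUAUguaccuuugu
IL6ST chr5:55938641-55938670: agaaaucugguUAUUUAUguaaaaacuagu
The first IL11 stretch carries 3 heptamers that overlap end to end, from base 43 to base 57 after the stop codon. The second carries 2 more by base 172. In SOCS3 the pair lies near the end of the 3′ UTR, from base 1569 to base 1581 of 1640, and in OSMR the overlapping pair runs from base 2010 to base 2020.

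**Figure D1:**
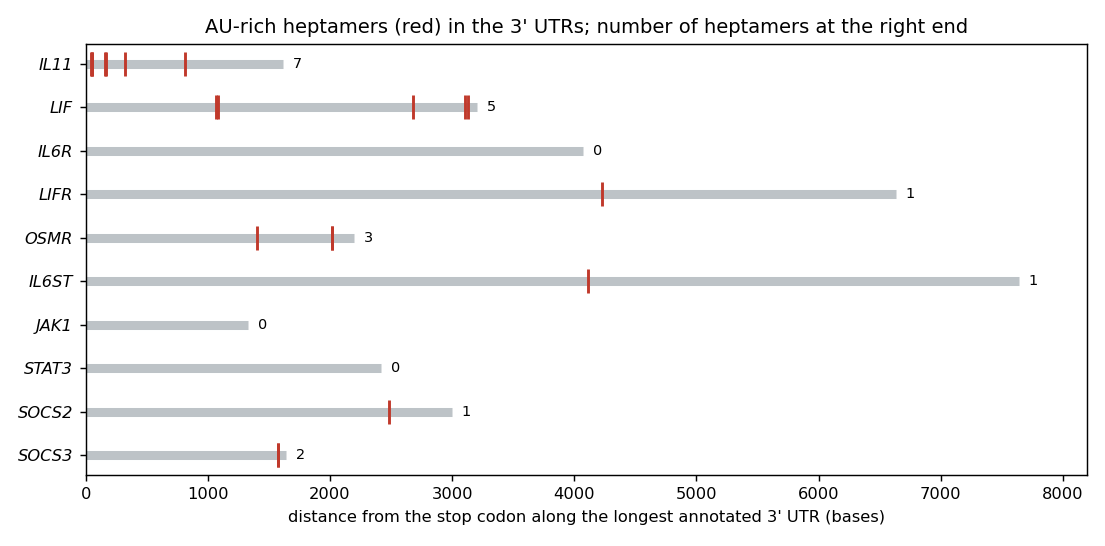
Position of each UAUUUAU heptamer (red ticks) along the longest annotated 3′ UTR of the 10 genes (grey bars), in bases from the stop codon, with the number of heptamers at the right end of each bar. IL11 holds 7, of which 5 lie within its first 172 bases, whereas IL6R, JAK1 and STAT3 hold none.

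Of the ligands, IL11 differed most. IL-11 is a cytokine of stromal and epithelial cells that signals through IL11RA and gp130. IL11 (chromosome 19, 55364389 to 55370463, ENSG00000095752) had 165 and 396 counts in DKO and 26 and 31 counts in control. These were 16.1 and 24.1 CPM in DKO (95% Wilson intervals 13.8 to 18.7 and 21.8 to 26.6) and 2.68 and 2.48 CPM in control (1.83 to 3.93 and 1.75 to 3.52). The intervals cover counting error only, and the labels name no molecular identifiers. Both DKO libraries lay far above both control libraries, and the control libraries were nearly equal. The means were 20.1 ± 5.68 CPM in DKO and 2.58 ± 0.146 CPM in control (SD, n = 2), a ratio of 7.78 and a log2 fold change of 2.98 (SE 0.30), the 17th highest of the 13359 genes tested. In bulk RNA, fewer cells carrying a transcript and less of it per cell cannot be told apart.

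LIF encodes leukemia inhibitory factor, which signals through LIFR and gp130. The LIF gene (chromosome 22, 30240447 to 30246851) had 54 and 127 counts in DKO and 14 and 48 counts in control. This gave 5.26 and 7.73 CPM in DKO and 1.45 and 3.84 CPM in control. The groups did not overlap, but the control libraries stood apart from each other, with Wilson intervals of 0.861 to 2.43 and 2.89 to 5.09 CPM. The interval of DKO replicate 1, 4.03 to 6.86 CPM, overlapped that of control replicate 2. A log2 fold change of 1.28 (SE 0.39) fell short of the threshold (adjusted p under 0.05 over all tested genes, edgeR), and it was 2.22 without control replicate 2 and 0.76 without control replicate 1.

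All 10 genes passed the filter on low counts. In the fit over all 13359 genes, 2 of the 10 (IL11 and SOCS3) were past the threshold and higher in DKO, and none was lower. Of all tested genes 2.24% were past the threshold and higher, 3.14% past it and lower, and 5.37% past it in either direction. As the members were chosen with this contrast known, nothing is read from their count. Both DKO libraries were above both control libraries for 6 members and below them for 2, against 23.7% and 26.2% of all tested genes (49.9% in either direction). The members' median log2 fold change was 0.38, beside 0.0015 for all tested genes. Given how the members were chosen, nothing is read from these values either.

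**Figure D2:**
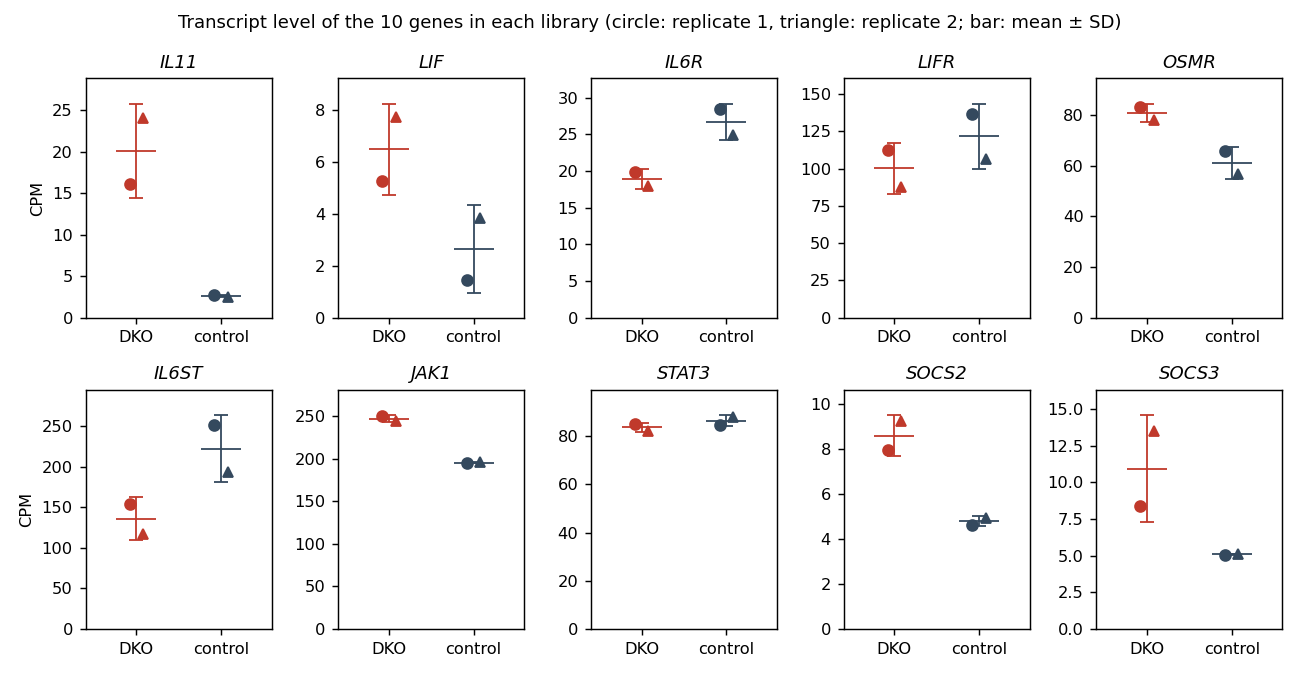
CPM of the 10 genes in each library, DKO left and control right (circle, replicate 1; triangle, replicate 2; horizontal bar with whiskers, mean ± SD, n = 2), each panel with its own linear axis from 0. IL11, LIF, OSMR, JAK1, SOCS2 and SOCS3 have both DKO libraries above both control libraries, IL6R and IL6ST have both below, and LIFR and STAT3 overlap; OSMR and JAK1 change sign when scaled to the ERCC spike-ins.

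The receptor chains pointed in different directions. IL6ST, the shared gp130 chain (chromosome 5, 55935095 to 55994993), had 154.3 and 117.5 CPM in DKO and 251.0 and 193.0 CPM in control. Both DKO libraries were below both control libraries, and within each clone replicate 2 was lower. Its log2 fold change was -0.70 (SE 0.21), short of the threshold in the edgeR fit and past it with DESeq2 (-0.70). IL6R, the chain specific to IL-6 (chromosome 1, 154405193 to 154469450), had 19.9 and 17.9 CPM in DKO and 28.4 and 24.9 CPM in control. It too was lower in both DKO libraries, with a log2 fold change of -0.49 (SE 0.21) that was not past the threshold.

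OSMR, the oncostatin M receptor (chromosome 5, 38845858 to 38945596), ran the other way, with 83.2 and 78.2 CPM in DKO and 65.6 and 56.7 CPM in control. The groups did not overlap, and the log2 fold change of 0.41 (SE 0.19), which was not past the threshold, turned to -0.25 with ERCC scaling (0.43 above the shifted median gene). LIFR (chromosome 5, 38474963 to 38608354) had 112.4 and 87.8 CPM in DKO and 136.9 and 106.3 CPM in control. Its groups overlapped, as DKO replicate 1 lay above control replicate 2, and replicate 2 was lower in each clone. Within a replicate number LIFR was 0.821 and 0.827 times control in DKO, and its log2 fold change was -0.27 (SE 0.20). The labels do not say what the replicate numbers share.

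The shares of the receptor transcripts did not overlap between the clones for IL6ST, OSMR and IL6R, and overlapped for LIFR. Scaled per kb of annotated exon, IL6ST made up 40.7% and 37.5% of the summed level of IL6ST, LIFR, OSMR and IL6R in DKO and 51.9% and 50.1% in control. OSMR made up 28.5% and 32.3% in DKO and 17.5% and 19.0% in control, whereas LIFR stayed between 21.6% and 23.2% in all 4 libraries. IL6R made up 7.55% and 8.22% in DKO and 8.45% and 9.32% in control. In CPM per kb, OSMR was 1.23 and 1.47 times LIFR in DKO and 0.792 and 0.882 times LIFR in control, where the levels of the 2 receptors overlapped across libraries. IL6ST was 0.688 and 0.600 times the sum of the other 3 in DKO and 1.08 and 1.00 times that sum in control. These shares come from the same libraries as the fold changes and carry no test.

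**Figure D3:**
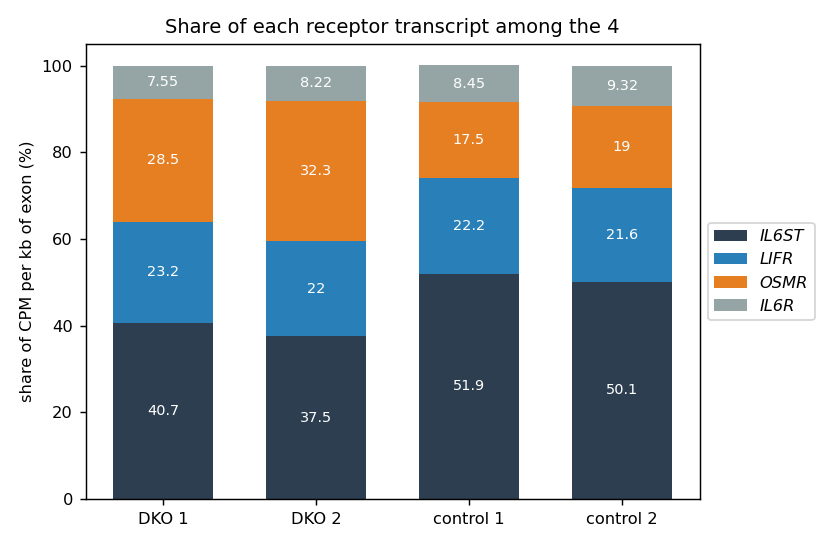
Share (%) of IL6ST, LIFR, OSMR and IL6R in their summed CPM per kb of exon, 1 stacked bar per library, DKO left of control. The IL6ST share is 37.5% to 40.7% in DKO and 50.1% to 51.9% in control, and the OSMR share is 28.5% to 32.3% in DKO and 17.5% to 19.0% in control.

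LIFR, OSMR and IL6ST all lie on chromosome 5, in stretches where most tested neighbours were lower in DKO. The 50 nearest tested genes had a median log2 fold change of -0.35 around LIFR and OSMR, which share 49 of these neighbours, and of -0.42 around IL6ST. Of the neighbours of IL6ST 44 were negative, 9 were past the threshold and lower, and none was past it and higher. OSMR, at 0.41, thus differed in sign from the median of its 50 neighbours, of which 40 were negative. Neighbour medians for the other members lay between -0.24 (SOCS3) and 0.10 (JAK1), and that of IL11 was -0.01. The part of these neighbourhoods in the receptor values was not tested.

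JAK1, the kinase bound to gp130 (chromosome 1, 64833229 to 64966504), had 250.1 and 244.5 CPM in DKO and 195.4 and 195.9 CPM in control. The libraries of each clone nearly coincided and the groups did not overlap. The log2 fold change of 0.35 (SE 0.19), not past the threshold, was -0.34 with ERCC scaling (0.34 above the shifted median gene). STAT3, the transcription factor of the pathway (chromosome 17, 42313324 to 42388568), had 85.1 and 82.4 CPM in DKO and 84.9 and 88.0 CPM in control. These levels overlapped, and the log2 fold change was -0.04 (SE 0.19).

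Both SOCS inhibitors had higher levels in both DKO libraries than in either control library. SOCS3, which blocks gp130 signalling (chromosome 17, 78356778 to 78360077), had 86 and 222 counts in DKO and 49 and 64 counts in control. These were 8.37 and 13.5 CPM in DKO and 5.06 and 5.12 CPM in control. The DKO libraries were far less alike than the control libraries. The log2 fold change was 1.13 (SE 0.29), and without DKO replicate 2 it was 0.70 and no longer past the threshold, as with ERCC scaling (0.39). SOCS2, best known as an inhibitor of growth hormone signalling (chromosome 12, 93569814 to 93583487), had 7.98 and 9.25 CPM in DKO and 4.65 and 4.96 CPM in control. Its groups did not overlap, and its log2 fold change of 0.86 (SE 0.27) fell short of the threshold.

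**Figure D4:**
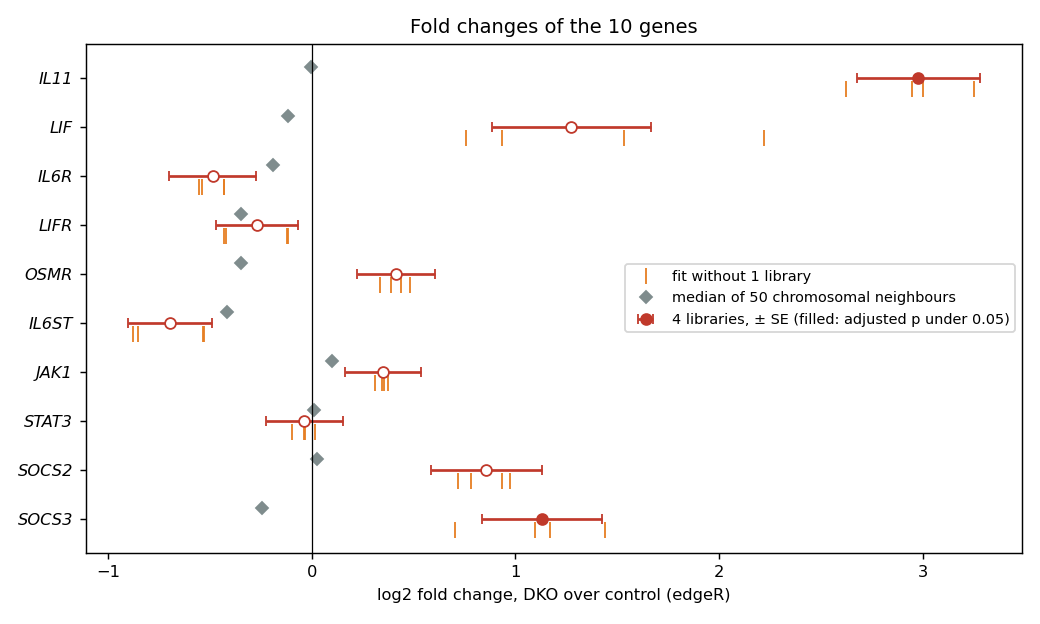
log2 fold change (DKO over control, edgeR) of the 10 genes as circles with whiskers of 1 SE, filled where the adjusted p over all tested genes was under 0.05. Orange ticks are fits without 1 library, and grey diamonds the median of 50 chromosomal neighbours. IL11 stays between 2.62 and 3.25 in the fits without 1 library, whereas LIF runs from 0.76 to 2.22.

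Among the members, levels per kb of exon in DKO ran in the order JAK1 (39.2 ± 0.623 CPM per kb), IL6ST (14.6 ± 2.80), OSMR (11.2 ± 0.502), STAT3 (9.50 ± 0.215), LIFR (8.44 ± 1.46), IL11 (7.52 ± 2.13), SOCS3 (4.0 ± 1.33), IL6R (2.93 ± 0.216), LIF (1.64 ± 0.440) and SOCS2 (1.27 ± 0.132; SD, n = 2). Libraries overlapped between STAT3 and LIFR, LIFR and IL11, SOCS3 and IL6R, and LIF and SOCS2. In control the order was JAK1 (31.0 ± 0.0499 CPM per kb), IL6ST (23.9 ± 4.41), LIFR (10.2 ± 1.83), STAT3 (9.81 ± 0.254), OSMR (8.52 ± 0.875), IL6R (4.13 ± 0.378), SOCS3 (1.86 ± 0.0150), IL11 (0.966 ± 0.0545), SOCS2 (0.709 ± 0.0325) and LIF (0.666 ± 0.426). There, LIFR overlapped both STAT3 and OSMR, and LIF overlapped SOCS2 and IL11. IL11 mRNA thus stood among the receptor transcripts in DKO and near the least abundant members in control.

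Several members overlap genes on the opposite strand, and although the library kit keeps strand, the sources used here do not say whether the counting used it. The exons of OSMR and RICTOR share 229 bases, and RICTOR had 1312 and 1498 counts in DKO and 1392 and 1186 counts in control. The exons of LIFR and LIFR-AS1 share 629 bases, and LIFR-AS1 had 17 and 27 counts in DKO and 16 and 26 in control. SOCS2 shares 277 exon bases with SOCS2-AS1, which had no more than 4 counts in any library. No annotated gene overlaps IL11, STAT3 or SOCS3.

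Beyond the members, 91 other genes of the pathway were placed in 9 lists from general knowledge, but with earlier results of these data known. Of the 91, 75 passed the filter on low counts. In the edgeR fit 7 of the 75 rose in DKO, 3 fell and 65 did not pass. This is 13.3% past the threshold beside 5.37% of all tested genes, and nothing is read from that share, given how the lists were chosen. The median log2 fold change of the 75 was 0.06. With ERCC scaling 4 of the 73 then tested passed, and STAT4, HAMP, ORM1, ORM2 and TIMP1 were among those that lost their call while staying positive.

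Of 8 further ligand genes 4 were tested. CLCF1, a cytokine that acts through the CNTF receptor and was named after its values were seen, had 11.3 and 13.8 CPM in DKO and 8.57 and 7.92 CPM in control (log2 fold change 0.62, SE 0.25, edgeR adjusted p = 0.167; -0.0781 with ERCC scaling). IL6 itself had 0 and 1 counts in DKO and 2 counts in each control library, and OSM had none.

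Of 4 further receptors 3 were tested, of which 2 fell past the threshold, beside 3.14% of all tested genes. With 3 genes in a list chosen with earlier results known, nothing is read from that count. IL31RA, a gp130-like chain of the IL-31 receptor, had 2.04 and 2.74 CPM in DKO and 6.61 and 5.68 CPM in control (-1.31, SE 0.32, edgeR adjusted p = 0.0253). It lies 12.2 kb from IL6ST and shares 49 of its 50 neighbours. IL27RA, the chain specific to IL-27, had 7.01 and 9.49 CPM in DKO and 14.1 and 20.7 CPM in control (-1.06, SE 0.27, edgeR adjusted p = 0.0343). Neither passed without DKO replicate 1 or without DKO replicate 2, IL27RA did not pass without control replicate 2 (-0.72), and IL31RA did not pass with DESeq2 (DESeq2 adjusted p = 0.0501). The receptor specific to IL-11, IL11RA, was scarce: it had 19 and 25 counts in DKO and 22 and 13 counts in control, and the groups overlapped (0.06, SE 0.45, edgeR adjusted p = 0.956; -0.56 with ERCC scaling). CNTFR had no count in DKO and 6 and 4 counts in control.

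Of 8 tested JAK kinases and STAT factors outside the members 1 rose past the threshold, beside 2.24% of all tested genes. STAT4, which transmits IL-12 signals in lymphocytes, had 41 and 47 counts in DKO and 13 and 14 counts in control (1.47, SE 0.39, edgeR adjusted p = 0.0411). Its call was lost with DESeq2 (DESeq2 adjusted p = 0.127), with limma-voom (limma adjusted p = 0.0539) and when either DKO library or control replicate 2 was left out. None of the other 6 SOCS-box genes passed. In none did the groups stay apart, as they did for 49.9% of all tested genes. Among the 6, SOCS6 had the smallest adjusted p (0.27, SE 0.22, edgeR adjusted p = 0.519; -0.35 with ERCC scaling). None of these 6 was past an unadjusted edgeR p of 0.05, beside 1279 higher and 1414 lower of all 13359 tested genes. DESeq2 and limma-voom each called 0 of the 6.

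None of 4 proteases that process receptors and ligands, 10 phosphatases and other inhibitors, or 7 adaptors passed in the edgeR fit, and DESeq2 and limma-voom each called 0 of them. At an unadjusted edgeR p under 0.05, 1 protease was lower, 1 inhibitor was higher and 1 lower, and no adaptor differed. At that cut 1279 of all 13359 tested genes were higher and 1414 lower, so nothing is read from these counts. The leading genes were RHBDF2, a cofactor of ADAM17 (-0.59, SE 0.23, edgeR adjusted p = 0.146), USP18, an inhibitor of interferon receptors (-0.60, SE 0.23, edgeR adjusted p = 0.157), and PIK3R1, a subunit of PI3-kinase (-0.42, SE 0.20, edgeR adjusted p = 0.261). RHBDF2 and USP18 passed without control replicate 1 (-0.82 and -0.79).

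Among 22 acute-phase genes known as STAT3 targets in liver, 14 were tested, of which 4 rose and none fell. Of all tested genes 2.24% rose and 3.14% fell past the threshold. HP, encoding the haemoglobin scavenger haptoglobin, had 11.9 and 15.2 CPM in DKO and 1.76 and 2.40 CPM in control (2.69, SE 0.31, edgeR adjusted p = 0.000132). HAMP, encoding the iron hormone hepcidin, which BMP signalling also induces, had 9.93 and 7.91 CPM in DKO and 2.17 and 1.599 CPM in control (2.26, SE 0.32, edgeR adjusted p = 0.000887). ORM1, encoding the plasma carrier orosomucoid, had 125.1 and 128.3 CPM in DKO and 55.2 and 69.9 CPM in control (1.02, SE 0.20, edgeR adjusted p = 0.00922). ORM2, whose sequence is nearly identical so that reads may be shared, was the fourth (0.97, SE 0.21, edgeR adjusted p = 0.0153). Neither ORM gene passed without DKO replicate 1 or without DKO replicate 2.

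The other 10 tested genes of the list did not pass in the edgeR fit, while DESeq2 and limma-voom each called 5 of the list. For 6 of the 14 the DKO libraries were both higher than either control library, and for 5 both lower. The shares of all tested genes were 23.7% and 26.2%. SERPINA1, encoding the protease inhibitor alpha-1-antitrypsin and named after its values were seen, had 1380.0 and 1498 CPM in DKO and 857 and 836 CPM in control (0.78, SE 0.22, edgeR adjusted p = 0.0528). It passed with DESeq2 (DESeq2 adjusted p = 0.00254) and limma-voom (limma adjusted p = 0.0293). With ERCC scaling its log2 fold change was 0.08 (SE 0.57) and did not pass. In the fits without 1 library it ran from 0.69 to 0.86. The fibrinogen chains FGA, FGB and FGG, also induced through STAT3 in liver and named after their values were seen, had log2 fold changes of -0.36, -0.31 and -0.52 (SE 0.20, 0.21 and 0.19) that did not pass, and for each both DKO libraries lay below both control libraries. FGG, for example, had 189 and 196 CPM in DKO and 312 and 245 CPM in control. CRP and LCN2 had no count in any library, and SAA1 had 2 counts in all. The median of the list was 0.43.

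Of 19 tested growth and early response genes known as STAT3 targets, 1 rose and 1 fell. Of all tested genes 2.24% rose and 3.14% fell past the threshold. TIMP1, an inhibitor of matrix metalloproteinases, had 16.9 and 25.7 CPM in DKO and 7.54 and 10.8 CPM in control (1.23, SE 0.28, edgeR adjusted p = 0.0185), and did not pass without DKO replicate 2 (0.86). CEBPD, a transcription factor of the acute-phase response, had 2.63 and 3.71 CPM in DKO and 8.47 and 11.1 CPM in control (-1.59, SE 0.30, edgeR adjusted p = 0.00708), and did not pass without DKO replicate 1 (-1.37, edgeR adjusted p = 0.0592). The median of this list was 0.12.

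**Figure D5:**
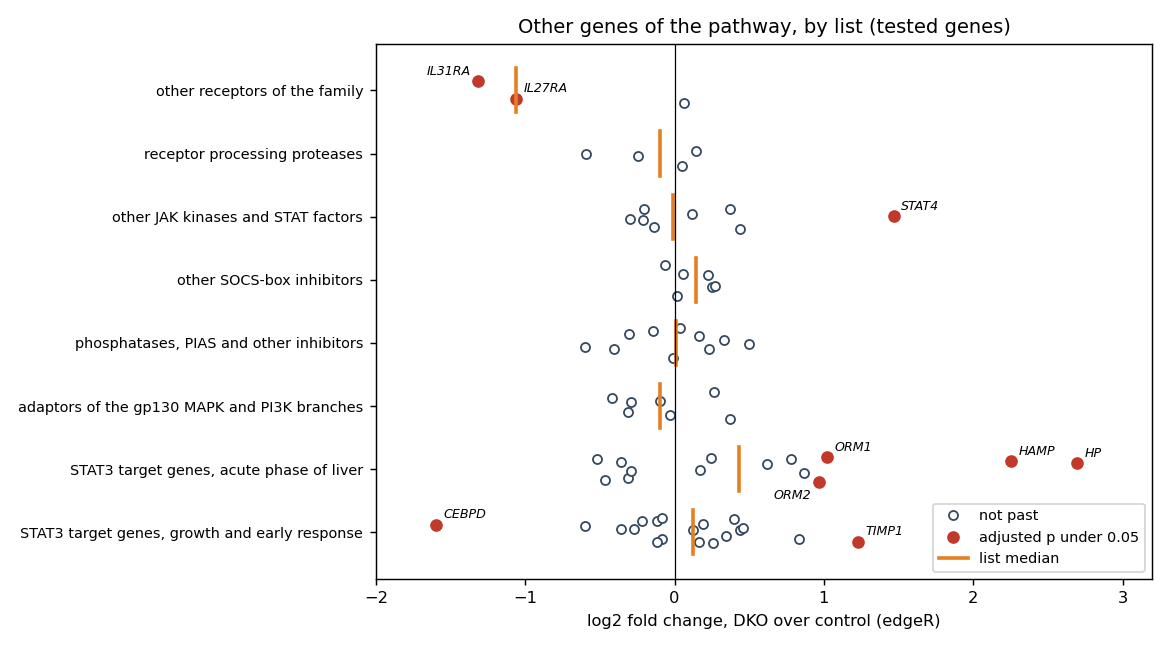
log2 fold change (DKO over control, edgeR) of the tested genes in 8 of the pathway lists, the ligand list left out, 1 row per list and 1 point per gene, filled red where the adjusted p was under 0.05, with the list median as an orange bar. The 9 filled genes are named, 6 to the right of 0 and 3 to the left.

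Across all tested genes, likeness to the profile of IL11 over the 4 libraries, by Euclidean distance between centred log2 CPM, ranked MFAP4, SPP1 and BGN first. The place of MFAP4, which had 11 and 22 counts in DKO and none in control, depends on the offset edgeR adds before taking logs and is no measured likeness. The distances of SPP1 and BGN were 0.319 and 0.378 log2 units. SPP1, encoding osteopontin, had 52.7 and 62.6 CPM in DKO and 8.16 and 8.95 CPM in control, and BGN, encoding the matrix proteoglycan biglycan, had 45.8 and 52.5 CPM in DKO and 8.67 and 7.04 CPM in control. With 4 libraries of 2 clones, this likeness mostly restates the size of the difference between the clones.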

How the data were processed

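The authors deposited raw read counts per gene symbol and ERCC spike-in for 4 libraries made from ribosome-depleted total RNA, read as 80 bases from 1 end, per the labels' protocols. The submitters' processing notes name hg38, STAR 2.5.3a, featureCounts (Subread 1.6.3) and DESeq2. The sources used here do not state the annotation, the strand setting or the handling of multiply matching reads. The 92 ERCC rows stayed out of library sizes. Positions, exon lengths and 3′ UTRs came from GENCODE release 29, in which 40718 of 42169 gene rows matched 1 gene.

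Counts were fitted in R 4.3.3 with edgeR 4.0.16 (filterByExpr, TMM, quasi-likelihood test, group as the only term, Benjamini-Hochberg over 13359 genes, threshold 0.05). The code was run on independent libraries simulated from the fit's own estimate of spread. That run cannot show whether the fit's assumptions hold for these libraries. SE is the log2 fold change divided by the square root of the test's F. Libraries of a clone were not duplicates (chi-square per degree of freedom 29.8 in DKO and 36.1 in control), but no label calls them separate cultures: the p-values reflect library-to-library spread that could be technical. For a single gene, 2 against 2 libraries allow no 2-sided exact permutation p below 0.333. Members and lists were chosen with earlier results of these data known. Named genes are the 10 members, up to 3 past the threshold in each list or else its leading gene, and the 3 profiles nearest to IL11; others are marked in the text, and a result of the ligand list is not reported here. Alternatives used DESeq2 1.42.0 and limma 3.58.1, other scalings, no filter, the replicate number as a block, and each library left out.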

Additional observations from a re-analysis of the deposited data

How the results depend on the processing

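With ERCC totals as library sizes the median of all genes shifted by -0.68, so directions are relative to the median gene. ERCC counts were 1.65% and 2.14% of gene counts in DKO and 1.49% and 0.955% in control. Under ERCC scaling 335 genes (718 in the main fit), 1 member (IL11) and 4 of the pathway genes passed. OSMR (-0.25), JAK1 (-0.34), SOCS6 (-0.35), CLCF1 (-0.0781) and IL11RA (-0.56) changed sign. Each of these values was smaller in size than its SE (0.52 to 0.59), so the sign is not settled. HAMP, ORM1, ORM2, TIMP1 and STAT4 also lost their call there. Without a filter 1194 genes and 5 members passed. A replicate block gave 4021 genes, 8 members and 30 pathway genes; the labels state no pairing, and the correlation of deviations between libraries sharing a number was 0.47. In the fits without 1 library, where the lone library is assumed to vary like the other clone's, 218 to 2172 genes, 1 to 4 members and 4 to 16 pathway genes passed. The gene count was 2172 without control replicate 1, 235 without DKO replicate 1 and 218 without DKO replicate 2. In these fits STAT3 ran from -0.0982 to 0.016 (without control replicate 2) and IL11RA from -0.41 (without control replicate 2) to 0.6488, with -0.0498 without DKO replicate 1. IL11 passed under all 10 alternatives, and SOCS3 under all but ERCC totals (0.39) and the fit without DKO replicate 2 (0.70). LIF and IL6ST passed under 4 each, SOCS2 under 2. TMM and DESeq2-style size factors in edgeR gave the same calls for every member. All of these fits reuse the same 4 libraries, and the members were chosen with this contrast known. Their calls thus describe dependence on the processing and are no further support for a difference. The causes of the shifts between settings were not tested. Fewer than 50 counts a library for IL11, SOCS3, SOCS2 or LIF in some control libraries limit the precision of their ratios.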

Other observations

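Among the 188 tested genes with at least 5 UAUUUAU heptamers in the longest annotated 3′ UTR, a set that includes IL11 and LIF, 5 rose in DKO, 5 fell and the median log2 fold change was 0.07, beside 0.0015 for all tested genes. The share that rose was 2.66%, beside 2.24% of all tested genes. These values were looked at after those of the members were known, and 3′ UTR length was not accounted for.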
